A study of Mus musculus with 4 samples.

Results

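Apical-basal polarity genes were followed at the transcript level in mouse blastocysts edited in Ywhaz. The set held 10 of the 22013 genes of the deposited table, picked by symbol. Earlier results of these data were known when the genes were chosen. They were Pard3, Pard6b, Prkci and Prkcz of the PAR complex, the small GTPase genes Cdc42 and Rhoa, the apical linker gene Ezr, and the basolateral genes Mark2, Scrib and Llgl1. Every one of the 10 symbols matched a single row, and all 10 passed the filter of a mean of at least 1 FPKM (fragments scaled to transcript length and library size).

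The knockout group was 2 libraries from C57BL/6 embryos whose Ywhaz gene was targeted with CRISPR-Cas9 in the zygote, per the labels; the names of their deposited columns carry the prefix si, which the labels do not explain. The control group was 2 libraries from C57BL/6 wild-type embryos, whose treatment is given in different places as Cas9 protein alone, a control guide RNA or none. Each library came from a pool of 5 blastocysts, and in both groups the embryos came from superovulated females mated within the strain and were cultured in vitro. The labels give no genotype of single embryos. Nothing says whether pools had different parents or were made on different days, so the p-values reflect variation among these 4 pools alone, and part of it may be technical.

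The polarity system sorts the surface of an epithelial cell into an apical and a basolateral domain. Apically, PAR3 and PAR6 scaffolds hold atypical protein kinase C, CDC42 activates that kinase through PAR6, and ezrin ties the membrane to actin. Basolaterally, the PAR-1 kinase MARK2, Scribble and LGL keep the apical proteins out, and atypical protein kinase C in turn displaces MARK2 and LGL. In the mouse embryo outer cells acquire an apical domain during compaction and become trophectoderm, the epithelium that encloses the blastocoel. Ywhaz encodes 14-3-3 zeta. In Caenorhabditis elegans a 14-3-3 protein is itself a PAR protein, PAR-5, and in Drosophila 14-3-3 proteins bind the PAR3 homologue after PAR-1 has phosphorylated it.

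Promoter sequences are shown for Prkcz and Prkci, because these kinase genes encode alternative catalytic partners of PAR6 and yet stood far apart in level. Each run covers the bases from 250 to 26 before the most upstream RefSeq start on GRCm38.p6. The Prkcz run is chr4:155361454-155361678 on the minus strand and the Prkci run is chr3:30995521-30995745 on the plus strand. Capitals mark matches to GCCNNNGGC, a motif of the AP-2 factors, and to GGAATG, a motif of the TEAD factors. TFAP2C and TEAD4 of these families act with RhoA to start polarity in the mouse embryo.
Prkcz: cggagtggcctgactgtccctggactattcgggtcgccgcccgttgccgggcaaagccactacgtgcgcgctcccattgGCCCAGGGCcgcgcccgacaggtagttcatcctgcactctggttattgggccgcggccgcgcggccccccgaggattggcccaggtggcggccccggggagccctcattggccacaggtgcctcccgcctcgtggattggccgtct
Prkci: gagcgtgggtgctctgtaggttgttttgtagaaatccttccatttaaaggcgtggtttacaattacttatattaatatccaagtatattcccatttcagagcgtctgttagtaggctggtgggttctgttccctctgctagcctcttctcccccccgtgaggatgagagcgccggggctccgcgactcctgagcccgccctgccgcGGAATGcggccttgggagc
The Prkcz run held 1 AP-2 match and no TEAD match, and the Prkci run held 1 TEAD match and no AP-2 match. Their GC contents were 70.7% and 53.8%. Over both strands of the 250 bases before each start, an AP-2 match was present for 4 of the 9 set genes with an entry (Pard3, Pard6b, Prkcz and Rhoa) and a TEAD match for 1, Prkci. Counted by window, since a gene can have several starts, that was 5 of 14 windows for AP-2 and 1 of 14 for TEAD. Of all 32851 promoter windows of this length, 13.7% held the AP-2 letters and 12.6% the TEAD letters. Prkcz has 3 annotated starts, and gene-level FPKM does not say which was used.

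The targeted transcript stood at 32.7 and 98.2 FPKM in knockout libraries 1 and 2, against 143 and 123 FPKM in control libraries 1 and 2. Both knockout values lay below both control values, and knockout library 2 lay much nearer to the controls. This difference, −1.21 on the log2 scale (SE 0.39), did not pass the threshold (limma adjusted p = 0.305). Spacing of the lowest values put the depth at 17550000 to 18600000 fragments per library. Trophectoderm markers summed to 905 and 1328 FPKM in knockout libraries and 1135 and 891 FPKM in control libraries, with all 12 listed genes present. Most of that sum was Dab2 and Id2. Dab2 measured 394 and 599 FPKM in knockout libraries and 510 and 363 FPKM in control libraries. Id2 measured 270 and 361 FPKM in knockout libraries and 377 and 331 FPKM in control libraries. Of the 11 trophectoderm markers tested, 8 were positive, 3 negative and 0 called. Epiblast markers summed to 351 and 385 FPKM in knockout libraries and 256 and 246 FPKM in control libraries, from 9 of 10 listed genes, so the groups did not overlap; of the 8 tested, 7 were positive and 0 were called. Primitive endoderm markers, 11 genes that share Dab2 with the trophectoderm list, summed to 435 and 647 FPKM in knockout libraries and 571 and 411 FPKM in control libraries, most of it Dab2. Without Dab2 they summed to 40.5 and 47.75 FPKM in knockout libraries and 60.8 and 47.79 FPKM in control libraries. Of the 7 tested with Dab2, 1 was positive (Dab2 itself), 6 were negative and 0 were called. Markers of cumulus cells summed to at most 1.80 FPKM in any library, with Cyp19a1 at 0 throughout, those of fibroblasts and stroma to at most 5.44, oocyte markers to at most 12.9 and blood markers to at most 37.5. The part of cell composition in the results was not tested. In pooled embryos fewer cells of a type and less RNA per cell cannot be told apart.

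None of the 10 polarity genes differed between knockout and control pools by the test across all genes. Limma on log2(FPKM + 1) called 0 of 10 at an adjusted p under 0.05 and 0 of 10 at an unadjusted p under 0.05. Over the 9544 genes tested, 0.0733% were called at the adjusted threshold (0.0314% higher and 0.0419% lower in knockout), and 11.1% had an unadjusted p under 0.05 (7.75% higher and 3.33% lower). The authors' deposited table gave an FDR of 1 for each of the 10 and no p-value under 0.05. Of all 22013 rows in it, 0.241% had an FDR under 0.05. The 10 genes were divided evenly by sign, 5 positive and 5 negative, with a median log2 fold change of 0.03, against 0.05 for all genes tested. With median-of-ratios scaling those medians were −0.04 and −0.02. For 1 gene, an exact two-sided permutation test of 2 libraries against 2 has a smallest possible p of 0.333. Any gene that passed the filter lies above the middle of the table, because 9544 of its 22013 rows passed. Levels of the 10 differed widely among the genes.

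**Figure D1:**
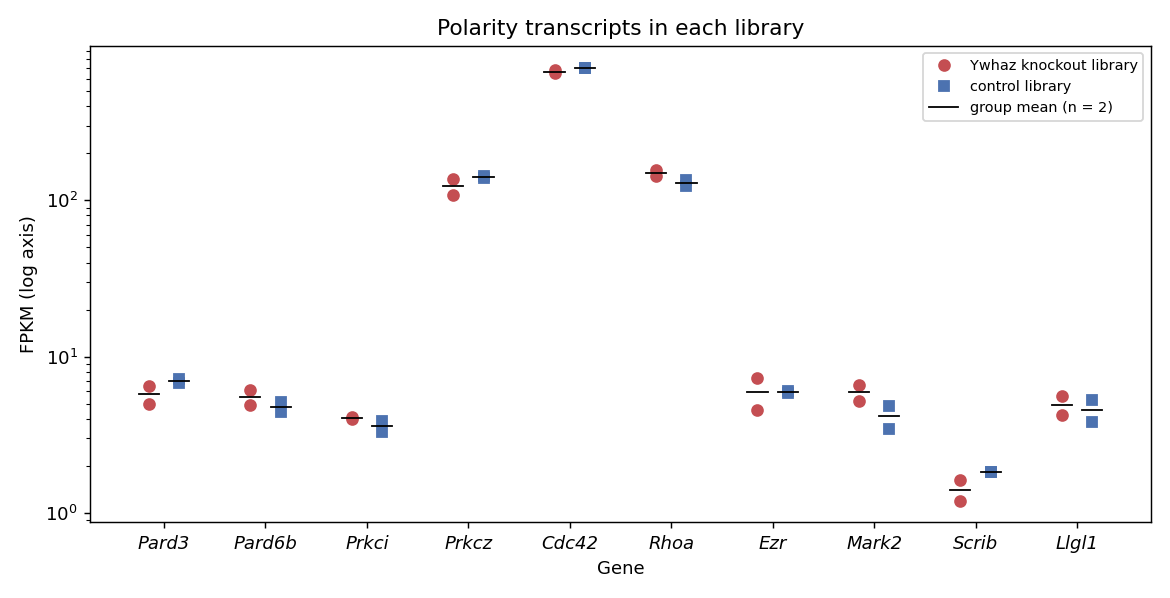
FPKM of each of the 10 polarity genes on a log axis, with 1 point per library, knockout in red and control in blue, and a line at the mean of 2. Cdc42 stands at 651 to 708 FPKM, Rhoa and Prkcz between 109 and 157 FPKM, and the other 7 genes between 1.20 and 7.29 FPKM.

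By mean level over the 4 libraries, per length, the order was Cdc42, Rhoa, Prkcz, Pard3, Ezr, Pard6b, Mark2, Llgl1, Prkci and Scrib. Cdc42 stood apart from Rhoa, Prkcz from Pard3, and Prkci from Scrib, with no overlap of their library values. Every other pair of neighbours in that order overlapped. Cdc42 lay at the 98.9th percentile of the level of all rows, Prkcz at the 95.4th and Scrib at the 61.7th.

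Within the PAR complex no gene passed the test, and its members did not share a sign. Pard3 encodes the multi-PDZ scaffold that recruits PAR6 and atypical protein kinase C to the cortex. On GRCm38 it spans positions 127063893 to 127612286 of chromosome 8, plus strand. It measured 4.97 and 6.48 FPKM in knockout libraries 1 and 2, against 6.82 and 7.14 FPKM in control libraries. Both knockout values lay below both control values. The log2 fold change was −0.26 ± 0.25 (SE; 95% interval −0.81 to 0.30; limma adjusted p = 0.755). It was −0.09 without knockout library 1 and −0.42 without knockout library 2. Its paralogue Pard3b was at most 0.008 FPKM in any library.

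Pard6b encodes the PAR6 adaptor that links CDC42 to atypical protein kinase C, and spans positions 168081004 to 168101203 of chromosome 2, plus strand. It measured 4.93 and 6.09 FPKM in knockout libraries, against 5.10 and 4.40 FPKM in control libraries, and these groups overlapped. Its log2 fold change was 0.18 ± 0.25 (SE; 95% interval −0.38 to 0.74; limma adjusted p = 0.840), and ran from 0.05 without knockout library 2 to 0.31 without knockout library 1. The related gene Pard6a was the more abundant PAR6 transcript, at 9.51 and 13.1 FPKM in knockout libraries and 15.9 and 12.8 FPKM in control libraries. Pard6g measured 0.831 and 0.929 FPKM in knockout libraries and 1.03 and 1.10 FPKM in control libraries. Pard6b therefore made up 32.3% and 30.3% of PAR6 FPKM in knockout libraries, against 23.2% and 24.1% in control libraries. The mean difference was 7.71 percentage points, and the SD between libraries was 1.40 points in knockout and 0.625 points in control pools.

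Prkci encodes PKC iota and Prkcz encodes PKC zeta, the atypical kinases of the complex. Prkci spans positions 30995747 to 31052959 of chromosome 3, plus strand, and measured 3.99 and 4.12 FPKM in knockout libraries, against 3.32 and 3.85 FPKM in control libraries. Prkcz spans positions 155260129 to 155361361 of chromosome 4, minus strand, and measured 138 and 109 FPKM in knockout libraries, against 138 and 143 FPKM in control libraries. Both Prkci values in knockout pools were above the control values, while for Prkcz knockout library 1 sat just below control library 1 and knockout library 2 sat lower. The log2 fold changes were 0.14 ± 0.25 for Prkci and −0.20 ± 0.19 for Prkcz (SE; limma adjusted p = 0.867 and 0.749). For Prkcz it was −0.03 without knockout library 2 and −0.37 without knockout library 1, and for Prkci 0.06 without control library 1 and 0.23 without control library 2. The FPKM of Prkcz was 34.5 and 26.4 times that of Prkci in knockout libraries and 41.6 and 37.1 times in control libraries. Prkcz made up 97.2% and 96.3% of atypical kinase FPKM in knockout libraries, against 97.7% and 97.4% in control libraries. The promoter runs printed above belong to this pair. The coding transcripts of Prkcz range from 586 to 4083 nt, and FPKM depends on the length assumed for the gene.

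**Figure D2:**
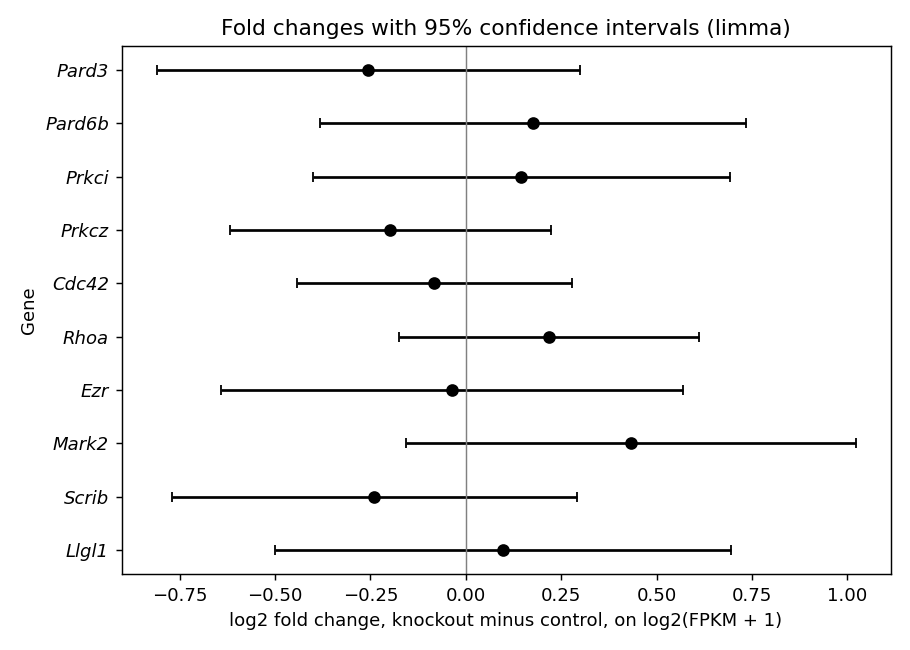
Log2 fold change of each polarity gene, knockout minus control on the log2(FPKM + 1) scale, with the 95% confidence interval from limma. Every interval includes 0, and that of Mark2 reaches furthest, from −0.16 to 1.02.

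Cdc42 and Rhoa had the highest mean levels of the set and the smallest standard errors, and neither passed the test. CDC42 switches on the PAR6-bound kinase, and RHOA drives actomyosin contraction at the cortex. Cdc42 spans positions 137319696 to 137357720 of chromosome 4, minus strand. It measured 679 and 651 FPKM in knockout libraries, against 708 and 701 FPKM in control libraries. Both knockout values were below both control values by a small margin, and the knockout mean was 94.4% of that in controls. Its log2 fold change was −0.08 ± 0.16 (SE; 95% interval −0.44 to 0.28; limma adjusted p = 0.887).

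Rhoa spans positions 108306129 to 108337934 of chromosome 9, plus strand. It measured 144 and 157 FPKM in knockout libraries, against 124 and 134 FPKM in control libraries. Its groups did not overlap, and the log2 fold change was 0.22 ± 0.18 (SE; 95% interval −0.17 to 0.61; limma adjusted p = 0.705). Rhoc, a close relative, measured 10.4 and 11.5 FPKM in knockout libraries and 16.2 and 13.8 FPKM in control libraries (limma adjusted p = 0.540). Rhob, another relative, measured 3.14 and 5.96 FPKM in knockout libraries and 2.81 and 3.59 FPKM in control libraries. Rhoa held 91.4% and 90.0% of the summed FPKM of Rhoa, Rhob and Rhoc in knockout libraries, against 86.7% and 88.6% in control libraries. Tcta, a gene that overlaps Rhoa on the other strand, measured 9.34 and 9.72 FPKM in knockout libraries and 11.9 FPKM in each control library. The sources used here do not say whether counting used strand, so reads of overlapping genes cannot be told apart.

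Ezr encodes ezrin, which links apical membrane proteins to the actin cortex and marks the apical domain of outer embryo cells. It spans positions 6738041 to 6782784 of chromosome 17, minus strand. It measured 4.53 and 7.29 FPKM in knockout libraries, against 6.02 and 5.87 FPKM in control libraries. The knockout libraries lay on either side of the controls, with the lowest and the highest value of the 4. Its log2 fold change was −0.04 ± 0.27 (SE; 95% interval −0.64 to 0.57; limma adjusted p = 0.980). It was −0.33 without knockout library 2 and 0.26 without knockout library 1, and neither value passed. Rdx, its paralogue radixin, also had its lowest and highest values in the knockout libraries. It measured 3.85 and 5.65 FPKM in knockout libraries and 4.70 and 4.32 FPKM in control libraries. Msn, the moesin gene, measured 3.59 and 6.39 FPKM in knockout libraries and 6.63 and 4.49 FPKM in control libraries. In both knockout libraries Ezr made up nearly the same part of the family, 37.8% and 37.7%, against 34.7% and 40.0% in control libraries.

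The basolateral genes differed in sign from each other, and none passed. Mark2 encodes the PAR-1 kinase that phosphorylates PAR3 and keeps it off the basolateral membrane. It spans positions 7275396 to 7341860 of chromosome 19, minus strand. It measured 5.24 and 6.57 FPKM in knockout libraries, against 4.84 and 3.43 FPKM in control libraries. Both knockout values were above both control values, but control library 1 was closer to knockout library 1 than to control library 2. Its log2 fold change of 0.43 ± 0.26 (SE; 95% interval −0.16 to 1.02; limma adjusted p = 0.595) was the largest of the 10 genes in size. Without control library 2 it was 0.23, and without control library 1 it was 0.63. Mark2 was 42.1% and 43.0% of the FPKM of Mark1 to Mark4 in knockout libraries, against 38.5% and 34.7% in control libraries. Mark3 lay below Mark2 in both knockout libraries and above it in both control libraries. It measured 4.51 and 5.53 FPKM in knockout libraries and 4.97 and 3.80 FPKM in control libraries. Mark1, too low to be tested, measured 0.775 and 0.707 FPKM in knockout libraries and 0.335 and 0.382 FPKM in control libraries. Mark4 had 1.90 and 2.47 FPKM in knockout libraries and 2.42 and 2.27 FPKM in control libraries.

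Scrib encodes the basolateral scaffold Scribble and spans positions 76047158 to 76069784 of chromosome 15, minus strand. It measured 1.61 and 1.20 FPKM in knockout libraries, against 1.84 and 1.82 FPKM in control libraries. Both knockout values were below the controls, and knockout library 1 lay closer to the controls than to knockout library 2. The log2 fold change was −0.24 ± 0.24 (SE; 95% interval −0.77 to 0.29; limma adjusted p = 0.759). With a pseudocount of 0.1 in place of 1 it was −0.37, and mean Scrib FPKM in knockout libraries stood at 76.8% of that in controls. It was −0.11 without knockout library 2 and −0.36 without knockout library 1. Scrib was the least abundant of the set, with an estimated 157 and 114 fragments in knockout libraries and 184 and 183 in control libraries. At its longest coding transcript, 5599 nt, counting alone then gives a coefficient of variation of 9.39% in the lowest library. A shorter transcript would mean fewer fragments and a larger value.

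Llgl1 encodes an LGL protein that atypical protein kinase C phosphorylates and removes from the apical cortex. It spans positions 60699723 to 60714186 of chromosome 11, plus strand. It measured 4.22 and 5.62 FPKM in knockout libraries, against 5.31 and 3.79 FPKM in control libraries, and the groups overlapped. The log2 fold change was 0.10 ± 0.27 (SE; 95% interval −0.50 to 0.69; limma adjusted p = 0.929). Llgl2, its paralogue, measured 4.15 and 6.75 FPKM in knockout libraries and 7.54 and 5.95 FPKM in control libraries. Llgl1 made up 50.4% and 45.4% of LGL FPKM in knockout libraries, against 41.3% and 38.9% in control libraries. Flii, which overlaps Llgl1 on the other strand, stood at a like level, 3.69 and 4.76 FPKM in knockout libraries and 3.66 and 3.10 FPKM in control libraries.

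**Figure D3:**
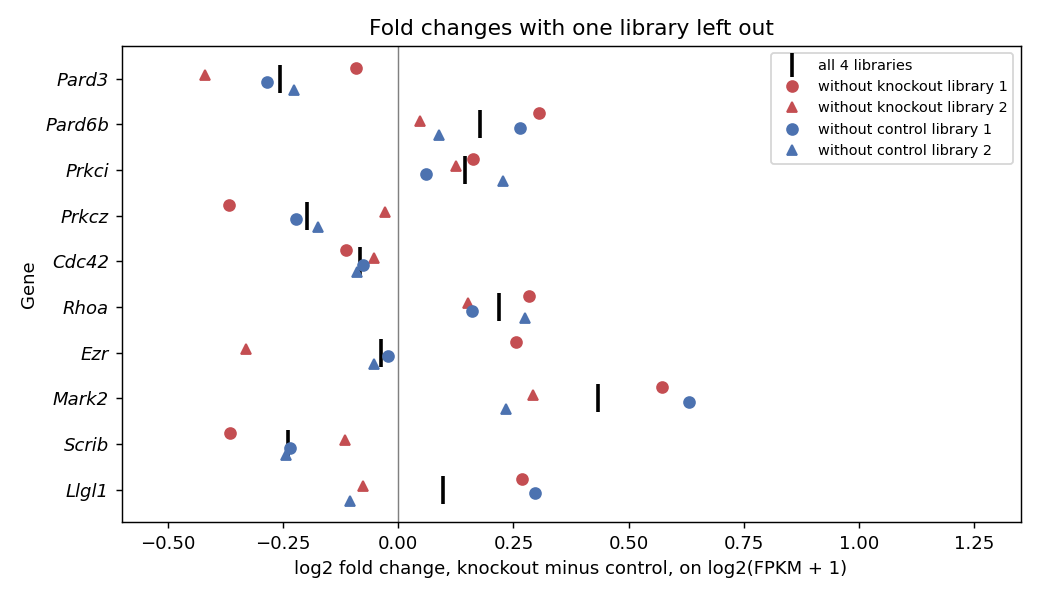
Log2 fold change of each polarity gene, knockout minus control, with all 4 libraries (black bars) and with each library left out in turn (points, coloured by the group of the library left out). Ezr runs from −0.33 to 0.26 and Llgl1 from −0.10 to 0.30, crossing 0, while the other 8 genes keep their sign. Where the groups do not overlap, leaving out a library cannot change the sign.

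In 7 of the 10 genes the library values of the groups did not overlap: Pard3, Prkcz, Cdc42 and Scrib were lower in both knockout libraries, and Prkci, Rhoa and Mark2 were higher. Over all genes tested, 41.4% did not overlap, 14% in the lower and 27.4% in the higher direction. None of these 7 genes had an unadjusted limma p under 0.05. Read as ratios of FPKM + 1, the 95% intervals of the 9 genes other than Mark2 lay between 0.570-fold and 1.67-fold, and that of Mark2 reached 2.03-fold. These intervals hold the differences that the 4 libraries leave possible, so they do not show that the genes were alike in both groups.

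**Figure D4:**
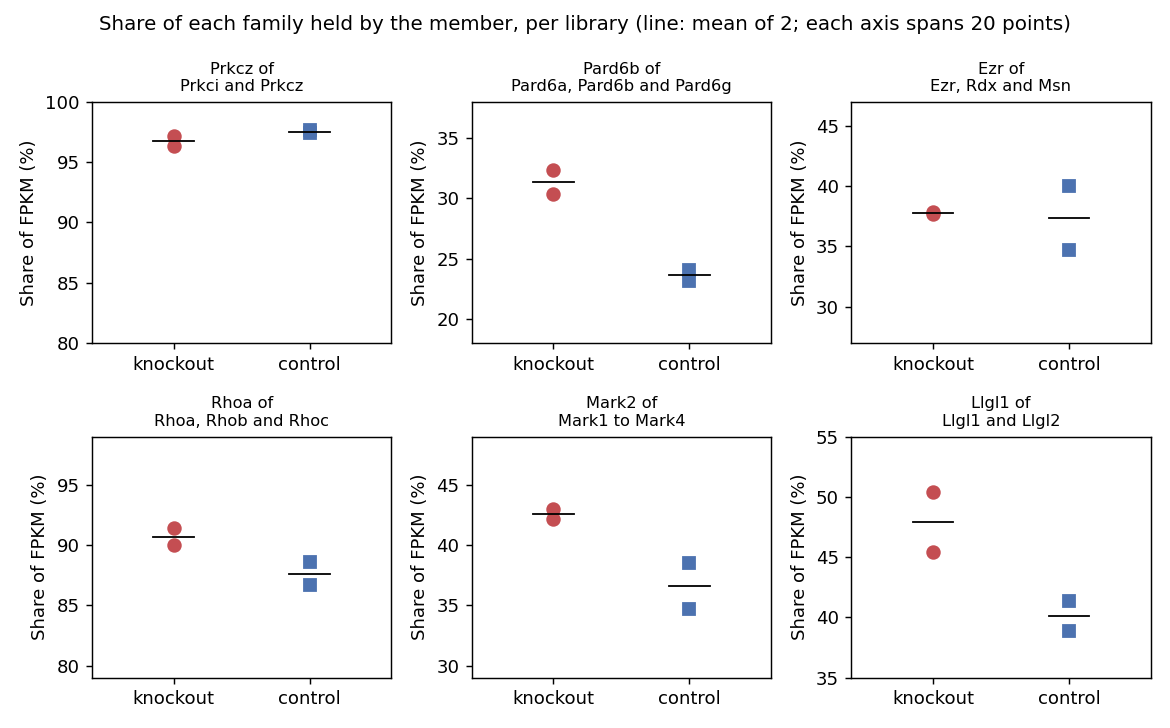
Share of a paralogue family's FPKM held by the polarity gene, in percent, for each knockout library (left, red) and control library (right, blue), with a line at the mean of 2 and an axis span of 20 points in each panel. Pard6b holds 30.3% to 32.3% in knockout libraries and 23.2% to 24.1% in control libraries, and Ezr overlaps between groups.

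The shares within families do not depend on scaling between libraries. Those of Pard6b, Rhoa, Mark2 and Llgl1 were above both control values in both knockout libraries, that of Prkcz was below, and that of Ezr overlapped. By level, 41.4% of all genes tested did not overlap. Shares of other families were not computed, so no background for shares is given. The mean difference was 3.07 percentage points for Rhoa, 5.96 for Mark2, 7.79 for Llgl1 and −0.75 for Prkcz. The SDs in knockout and control pools were 0.975 and 1.32 points for Rhoa, 0.624 and 2.70 for Mark2, 3.50 and 1.72 for Llgl1, and 0.590 and 0.195 for Prkcz. The families were set after the values were seen and no test was made. Behind the Llgl1 share, Llgl1 averaged 4.92 FPKM in knockout and 4.55 in control libraries, and Llgl2 averaged 5.45 FPKM in knockout and 6.74 in control libraries. Behind the Pard6b share, Pard6b averaged 5.51 FPKM in knockout and 4.75 in control libraries, and Pard6a averaged 11.3 FPKM in knockout and 14.3 in control libraries. None of these 4 genes passed the test.

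Around these genes, 5 lists of polarity genes were read in the same fit, which hold 8 of the 10 (Cdc42 and Rhoa are in none of them). Of 46 symbols 43 were in the table. The other 3, Mpp5, Slc9a3r1 and Slc9a3r2, are older names of Pals1, Nherf1 and Nherf2, which were in it. Of the 43, 3 were at 0 in every library, and 29 were tested. Limma called 0 of 29 at an adjusted p under 0.05, against 0.0733% of all genes tested. Of the 29, 2 had an unadjusted p under 0.05, both with a positive fold change. The share of all genes tested at that unadjusted threshold was 11.1%, with 7.75% in the higher direction. By the authors' deposited table, none (0 of 43) had an FDR under 0.05, against 0.241% of all 22013 rows, and 1 had a p-value under 0.05. The median log2 fold change of the 29 was 0.04, with 15 positive and 14 negative, against 0.05 for all genes tested, of which 56% were positive. The groups did not overlap in 9 of 29 in the higher and 5 of 29 in the lower direction, near the 27.4% and 14% of all genes tested.

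**Figure D5:**
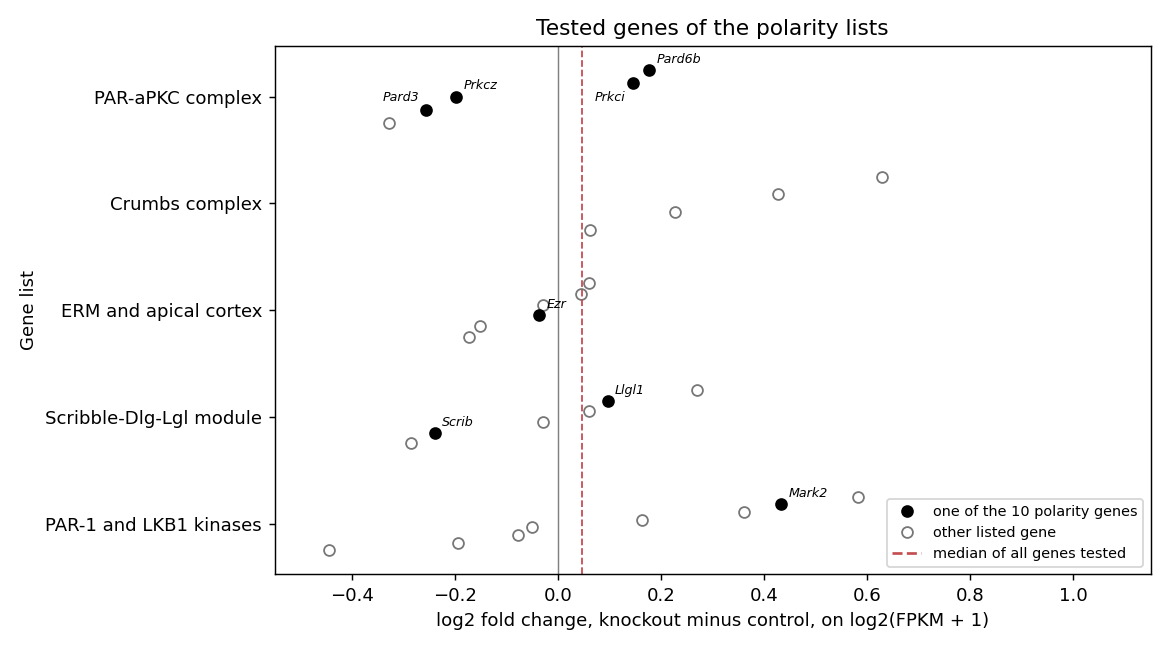
Log2 fold change, knockout minus control on the log2(FPKM + 1) scale, of the 29 tested genes of 5 polarity lists, each point 1 gene, with 8 of the 10 polarity genes filled and named. The 4 tested Crumbs complex genes lie right of 0, the other lists straddle it, and the dashed line marks the median of all genes at 0.05.

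The Crumbs complex, the other apical scaffold of epithelia, had 4 tested genes, all with positive fold changes, and its median was 0.33. Of these, 0 were called and 1 had an unadjusted p under 0.05. The shares over all genes tested were 0.0733% and 11.1%, and 56% had a positive fold change. Pals1, which binds CRB3 and PAR6, measured 2.93 and 2.98 FPKM in knockout libraries, against 1.50 and 1.62 FPKM in control libraries (a log2 fold change of 0.63 with an SE of 0.24; limma adjusted p = 0.378). The 2 libraries of each group lay close together and the groups did not overlap. Lin7c, which binds PALS1, measured 14.3 and 14.8 FPKM in knockout libraries, against 10.3 and 10.8 FPKM in control libraries (limma adjusted p = 0.515). Patj, the multi-PDZ partner of PALS1, measured 4.26 and 4.11 FPKM in knockout libraries, against 3.37 and 3.49 FPKM in control libraries (limma adjusted p = 0.774). Crb3, the transmembrane Crumbs protein of epithelia, was abundant and overlapped between groups, with 227 and 205 FPKM in knockout libraries and 237 and 181 FPKM in control libraries.

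In the list of PAR-1 and LKB1 kinases 4 of 8 tested genes were positive and 4 negative, 0 called and 1 at an unadjusted p under 0.05. The shares called and at that unadjusted threshold over all genes tested were 0.0733% and 11.1%. Cab39, which encodes the MO25 subunit that activates LKB1, measured 19.8 and 31.8 FPKM in knockout libraries, against 16.9 and 16.0 FPKM in control libraries (limma adjusted p = 0.438). Knockout library 2 stood well above the other 3 libraries. Stk11, the LKB1 kinase that activates MARK kinases, measured 6.66 and 8.68 FPKM in knockout libraries, against 6.14 and 5.30 FPKM in control libraries (limma adjusted p = 0.651). Stradb, its pseudokinase partner, measured 10.1 and 12.0 FPKM in knockout libraries, against 16.4 and 14.3 FPKM in control libraries (limma adjusted p = 0.513). Cab39l, the paralogue of Cab39, measured 44.2 and 46.1 FPKM in knockout libraries and 47.5 and 56.6 FPKM in control libraries. Of the 8 tested genes, 3 did not overlap in the higher direction (Mark2, Cab39 and Stk11) and 2 in the lower (Stradb and Cab39l). Over all genes tested, 27.4% did not overlap in the higher and 14% in the lower direction.

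The remaining lists had no tested gene at an unadjusted p under 0.05, against 11.1% of all genes tested. Their medians were −0.20 over 5 genes of the PAR complex, −0.03 over 6 genes of the ezrin family and apical cortex and 0.02 over 6 genes of the Scribble module. In the Scribble module Dlg1, which encodes a partner scaffold of Scribble, measured 2.50 and 2.65 FPKM in knockout libraries and 2.49 and 2.36 FPKM in control libraries. Erbin, which encodes a relative of Scribble, measured 1.25 and 1.79 FPKM in knockout libraries and 1.02 and 1.13 FPKM in control libraries, with no overlap (limma adjusted p = 0.730). Dlg3, a paralogue of Dlg1, overlapped, with 2.27 and 2.96 FPKM in knockout libraries and 2.97 and 2.40 FPKM in control libraries. In the apical cortex list Nherf1, a scaffold that binds ezrin, measured 7.82 and 9.72 FPKM in knockout libraries and 11.3 and 8.77 FPKM in control libraries. Pdzk1, a related scaffold, measured 1.33 and 1.43 FPKM in knockout libraries and 1.58 and 1.02 FPKM in control libraries, and both overlapped between groups.

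The deposited annotation ties the 10 genes to shared places and pathways. The genes were chosen for known roles in polarity, so such sharing follows from the choice. The KEGG pathway for tight junctions held 9 of the 10, Mark2 being the exception, and 0.754% of all rows. The KEGG pathway for Hippo signalling, through which polarity acts on YAP, held 6 of the 10 (Llgl1, Pard3, Pard6b, Prkci, Prkcz and Scrib) and 0.709% of all rows. The Gene Ontology term for the apical plasma membrane was attached to 6 of the 10 and that for the basolateral plasma membrane to 3. Ezr and Scrib carried both terms.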

How the data were processed

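Poly(A) RNA of 4 pools of 5 blastocysts was sequenced. The authors deposited FPKM per gene and library, rounded to 3 decimals, with group means in FPKM; the deposited log2 fold change is knockout over control, per the file headers, and the p-value and FDR are the authors', and the sources used here do not name their tool. Per the submitters' processing notes, with no roles given, the tools were DESeq2, RSEM, StringTie 1.3.1, HISAT2 2.1.0, Bowtie2 2.2.8 and fastp 0.18.0, and the build was GRCm39.

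From these values log2(FPKM + 1) was modelled on group alone by limma (version 3.58.1, R 4.3.3; intensity trend on) over the 9544 genes whose mean reached 1 FPKM, with Benjamini-Hochberg adjustment over all of them. There were 2 residual degrees of freedom. Fold changes on this scale understate changes of low genes. The fit was also run on simulated data whose noise depended on level alone. That run cannot say how many changes of real genes were missed. Alternatives were a pseudocount of 0.1, other filters, TPM and median-of-ratios scaling, no trend, leaving out each library, and a replicate block. Members and lists were chosen with earlier results of these data known. Named genes were the 10 members, their paralogues, and up to 4 other tested genes of each list by smallest p. Of 8 lists, 3 are not reported here.

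Depth was estimated from transcripts over 1500 nt with 1 isoform, assuming 200 nt fragments: per library, 84.4% to 94.0% of the low values then came within 10% of a fragment of a whole number. Fragment numbers use the longest coding transcript. These cover counting error only. Gene loci are from GENCODE M21 on GRCm38, matched by identifier, and promoters from RefSeq on GRCm38.p6, present for 9 of 10 genes, so neither is on the authors' build. A planned search for a protein motif was not run.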

Additional observations from a re-analysis of the deposited data

How the results depend on the processing

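Limma called 0 of the 10 polarity genes under every alternative run, with adjusted p never below 0.220. Of 117 single-gene values recomputed, 3 had the other sign, all with a library left out: Ezr ranged from −0.33 to 0.26 and Llgl1 from −0.10 to 0.30. Settings that changed only the filter, the trend or the block could not change a log2 fold change, which is a difference of group means. Part of the 117 values was therefore fixed in advance. Leaving out a library cannot change the sign of a gene whose groups do not overlap. The median of the 10 ranged from −0.071 to 0.21 with a library left out, being 0.21 without knockout library 1, where the median of all genes was 0.13. With median-of-ratios scaling the log2 fold changes of Pard6b, Prkci, Rhoa and Llgl1 were 0.11, 0.08, 0.14 and 0.03, and those of Cdc42 and Ezr were −0.16 and −0.11; with TPM scaling Cdc42 and Ezr were at −0.05 and −0.0067. At a mean of at least 5 FPKM, 7 of the 10 were tested and their median was −0.04. Family shares do not move with scaling. Leaving out a library, the difference kept its sign for the shares of Prkcz (−1.17 to −0.34 points), Pard6b, Rhoa, Mark2 and Llgl1, and ran from −2.24 to 3.08 points for Ezr. The groups did not overlap in the shares that kept their sign, so leaving out a library could not change it.

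The 7 calls over all genes numbered 11 with TPM scaling, 4 with median-of-ratios scaling, 3 without the intensity trend and 0 in limma with no filter on low values, where 1400 had an unadjusted p under 0.05. Leaving out a library gave 17 to 249 calls: 167 without knockout library 1, 249 without knockout library 2, 18 without control library 1 and 17 without control library 2. Such fits leave 1 library in a group, which is assumed to vary like the other group. With the replicate number as a block there were 38 calls, none of them among the 10. Deviations of same-numbered libraries correlated at −0.24 across genes, so a block with crossed numbers, added after the data were seen, was also run. That block was picked from these same data, so its calls and p-values cannot serve as a test. It gave 475 calls, none among the 10, and there Mark2 had an unadjusted limma p of 0.0447. The cause of these changes was not tested. Precision is limited by 2 pools in each group.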
